A study of Arabidopsis thaliana with 18 samples.

Results

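The Aux/IAA and ARF genes of Arabidopsis thaliana were described in dry and germinating seeds of a DNA demethylase mutant and its wild type. The set held 40 of the 27587 genes of the count table, 29 Aux/IAA and 11 ARF genes. It was listed by gene identifier and not by a measured value, but with earlier results of these data known. Their 81 transcripts, of 48268 in the table, were summed to genes. RNA came from 18 libraries of entire seeds, with 3 replicates for each of 6 groups: seeds labelled ros1-4 and Col-0 seeds, each sampled mature and dried and at germination stages II and IV. Stage II is the rupture of the seed coat with the tip of the radicle showing, and at stage IV the radicle has grown further out. Col-0 is the wild type accession. The ros1-4 line is a single T-DNA insertion line in that background, with the insertion in ROS1, whose enzyme removes methylated cytosine from DNA. All seeds ripened on plants kept at 23 °C and were dried, and those of stages II and IV were then imbibed in water. Each replicate pooled at least 100 seeds, so that a value is a mean over embryo, endosperm and seed coat. In such bulk samples fewer cells of a type and less RNA per cell cannot be told apart.

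Aux/IAA proteins are short-lived repressors of auxin response. They bind the ARF transcription factors at auxin-responsive genes and recruit TOPLESS corepressors. Auxin joins an Aux/IAA protein to a TIR1/AFB receptor through a short degron, and the repressor is then ubiquitinated and degraded. ARF5, ARF6, ARF7, ARF8 and ARF19 activate transcription, while ARF1, ARF2, ARF3, ARF10, ARF16 and ARF17 are classed as repressors. Many Aux/IAA genes are themselves induced by auxin. In seeds, ARF10 and ARF16 are known to act in auxin-dependent dormancy.

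The core of the degron divides the Aux/IAA family, and its classes order the results. Translation of the RefSeq coding sequences (assembly TAIR10.1) found the full core in 17 of the 29 genes, a core that ends in another residue in 6 (IAA8, IAA10, IAA11, IAA12, IAA13 and IAA27) and no core in 6 (IAA20, IAA30, IAA31, IAA32, IAA33 and IAA34). Full means here only that the core ends in valine. IAA8, IAA11, IAA12, IAA13 and IAA27 end it in isoleucine and IAA10 in leucine. Degradation of the proteins was not measured, and a core with another residue is not called defective. The coding sequence around the core is shown for members on which the results turn, 5′ to 3′ on the coding strand, with the 5 codons of the core in capitals. IAA17 (chr1:1136938-1136967, plus strand), IAA16 (chr3:1289730-1289759, minus), IAA14 (chr4:8349478-8349507, minus), IAA2 (chr3:8181387-8181416, minus), IAA9 (chr5:26255104-26255133, plus) and IAA26 (chr3:5613662-5613691, minus) have the full core. IAA8 (chr2:9637725-9637754, plus), IAA10 (chr1:1060328-1060357, plus) and IAA13 (chr2:14115233-14115262, minus) end it with the codon of another residue.
IAA17: caagttgtgGGATGGCCACCGGTGagatca
IAA16: caagttgtgGGATGGCCACCGGTAcgatct
IAA14: caagtggtgGGTTGGCCACCGGTGaggaac
IAA2: caaatcgttGGTTGGCCACCAGTGagatct
IAA9: caaattgtcGGTTGGCCTCCAGTGagatcc
IAA26: ccagtggtgGGTTGGCCTCCGGTTcgttcg
IAA8: caggttgttGGTTGGCCTCCAATCagatca
IAA10: gttgctgtaGGTTGGCCGCCTCTAcggact
IAA13: caagttgttGGATGGCCTCCTATAgggtca

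Several ARF mRNAs carry a site for a microRNA, which cleaves or represses its targets. The mature sequences that RefSeq annotates for MIR160a (chr2:16340282-16340302, plus strand) and MIR167a (chr3:8108090-8108110, plus) are written with T and with the seed, bases 2 to 8, in capitals. The sites lie in the coding sequences of ARF17 (chr1:29274189-29274209, plus, 1 mismatch to MIR160a), ARF8 (chr5:14633841-14633861, plus, 3 mismatches to MIR167a) and ARF6 (chr1:10686478-10686498, minus, 4 mismatches). Bases identical to the exact complement of the microRNA are in capitals. Any other base is counted as a mismatch, also a G opposite a U. These 3 ARF genes are shown because each differed between the genotypes at some stage. ARF10 and ARF16 also held a MIR160a site, with 2 and 3 mismatches. Levels of the microRNAs were not analysed here.
MIR160a: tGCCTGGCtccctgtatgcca
ARF17 site: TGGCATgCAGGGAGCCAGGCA
MIR167a: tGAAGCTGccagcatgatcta
ARF8 site: TAGATCAgGCTGGCAGCTTgt
ARF6 site: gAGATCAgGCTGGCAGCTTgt

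The auxin response motif TGTCTC, to which ARF proteins bind, was searched on both strands in the 300 bases before each annotated gene start, together with the variant TGTCGG, which cannot start at the same base. TGTCTC lay in 11 of 29 Aux/IAA and in 2 of 11 ARF promoters, against 13.0% of 27390 protein-coding genes. TGTCGG lay in 6 of 29 Aux/IAA and in 2 of 11 ARF promoters, against 4.92%. A match describes letters and not a bound site. A pair of promoters is printed, with TGTCTC or its complement in capitals, because their genes moved in opposite directions at germination. IAA19, with 0 counts in every mature library, held 3 copies (chr3:5263701-5264000, plus strand), and IAA32, which fell furthest at germination, held 1 copy (chr2:117669-117968, plus strand).
IAA19: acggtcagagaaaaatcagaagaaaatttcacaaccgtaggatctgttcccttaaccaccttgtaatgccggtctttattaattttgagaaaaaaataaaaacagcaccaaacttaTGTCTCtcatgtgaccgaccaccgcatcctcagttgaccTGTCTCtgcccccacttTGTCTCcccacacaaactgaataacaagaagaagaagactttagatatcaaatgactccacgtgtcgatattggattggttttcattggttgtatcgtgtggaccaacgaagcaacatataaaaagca
IAA32: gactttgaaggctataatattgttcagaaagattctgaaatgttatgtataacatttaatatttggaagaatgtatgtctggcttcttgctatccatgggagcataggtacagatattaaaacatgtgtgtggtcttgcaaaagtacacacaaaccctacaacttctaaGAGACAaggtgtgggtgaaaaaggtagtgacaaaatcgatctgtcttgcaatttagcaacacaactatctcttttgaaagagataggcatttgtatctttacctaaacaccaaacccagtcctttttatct

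The targeted gene was examined first. ROS1 (AT2G36490, DML1 in RefSeq) had 124, 141 and 145 CPM in mature seeds labelled ros1-4, against 205, 198 and 206 CPM in Col-0, where CPM are counts relative to library size after TMM scaling over the 18 libraries. At stage II it had 46.1, 44.9 and 43.7 CPM in seeds labelled ros1-4, against 10.2, 11.4 and 11.3 CPM in Col-0. At stage IV the values were 42.8, 44.4 and 49.7 CPM with the ros1-4 label and 11.7, 12.6 and 10.3 CPM in Col-0. ROS1 mRNA was thus lower under the mutant label in mature seeds but higher at both germination stages. Whether the labels are right cannot be decided from these values. The counts do not show whether the transcript was intact, and every direction below is that of libraries named by their labels.

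Library totals lay between 18737837 and 20787603 counts, of which the members took 0.0638% to 0.144% as group means. The 10 most abundant genes took 6.89% to 7.49% of the counts in the germinating groups and 29.4% to 34.6% in the mature ones, and TMM factors were 1.27 to 1.35 in germinating and 0.511 to 0.671 in mature libraries. By stage II, 10 of 10 storage and late maturation genes had fallen and 3 of 3 green tissue genes had risen in both genotypes. The seed coat markers TT10 and BAN had at most 6 counts in any library, so they do not show how much seed coat RNA the libraries held.

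Levels were compared between genes as TPM, counts per annotated transcript length within a library. A few members dominated both dry and germinating seeds. IAA9 (AT5G65670), a repressor with the full core, was the most abundant Aux/IAA gene in every group. It took 34.9% ± 0.4 (mean, SD, n = 3) of the family's summed TPM at stage II with the ros1-4 label, against 36% ± 1.47 in mature seeds, and 32.4% ± 0.754 at stage II in Col-0, against 42.1% ± 1.09 in mature seeds. ARF1 and ARF2, which act in ageing and organ shedding, together took 41.9% ± 0.394 of the ARF sum at stage II with the ros1-4 label, against 69.7% ± 1.48 in mature seeds. In Col-0 that share was 46.6% ± 0.955 at stage II, against 67.5% ± 0.716 in mature seeds.

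By annotated length the leading gene differed between mature and germinating seeds. In mature seeds labelled ros1-4 ARF2 led with 69.7 ± 1.54 TPM, followed by IAA9 with 59.8 ± 3.8 TPM and ARF1 with 58.9 ± 4.16 TPM. In mature Col-0 seeds the same genes led, with 95.2 ± 1.13 TPM for ARF2, 73.4 ± 3 TPM for IAA9 and 70.4 ± 1.22 TPM for ARF1. The ranges of IAA9 and ARF1 overlapped in both mature groups. At stage II IAA9 led with 194 ± 3.9 TPM in seeds labelled ros1-4 and 150 ± 3.15 TPM in Col-0. ARF2 came next with 89.2 ± 0.772 TPM under the ros1-4 label and 99.8 ± 2.46 TPM in Col-0, ahead of IAA8 with 86.4 ± 2.5 TPM and 77.7 ± 8.95 TPM for the same labels, with no overlap. At stage IV IAA9, ARF2, IAA8 and IAA16 held the leading places in both genotypes. The order depended on the length used. With the effective lengths that Salmon estimated and the authors deposited, 1 per transcript, IAA9 led in mature seeds too, with 72.2 ± 3.88 TPM under the ros1-4 label and 83.2 ± 2.36 TPM in Col-0. ARF2 then had 61.9 ± 0.827 TPM with the ros1-4 label and 79.4 ± 1.94 TPM in Col-0, where the ranges of both genes overlapped. At stage II IAA8 lay above ARF2 on that scale, with 112 ± 3.73 against 70.4 ± 0.899 TPM under the ros1-4 label and 99.7 ± 10.6 against 78.4 ± 2.54 TPM in Col-0.

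**Figure D1:**
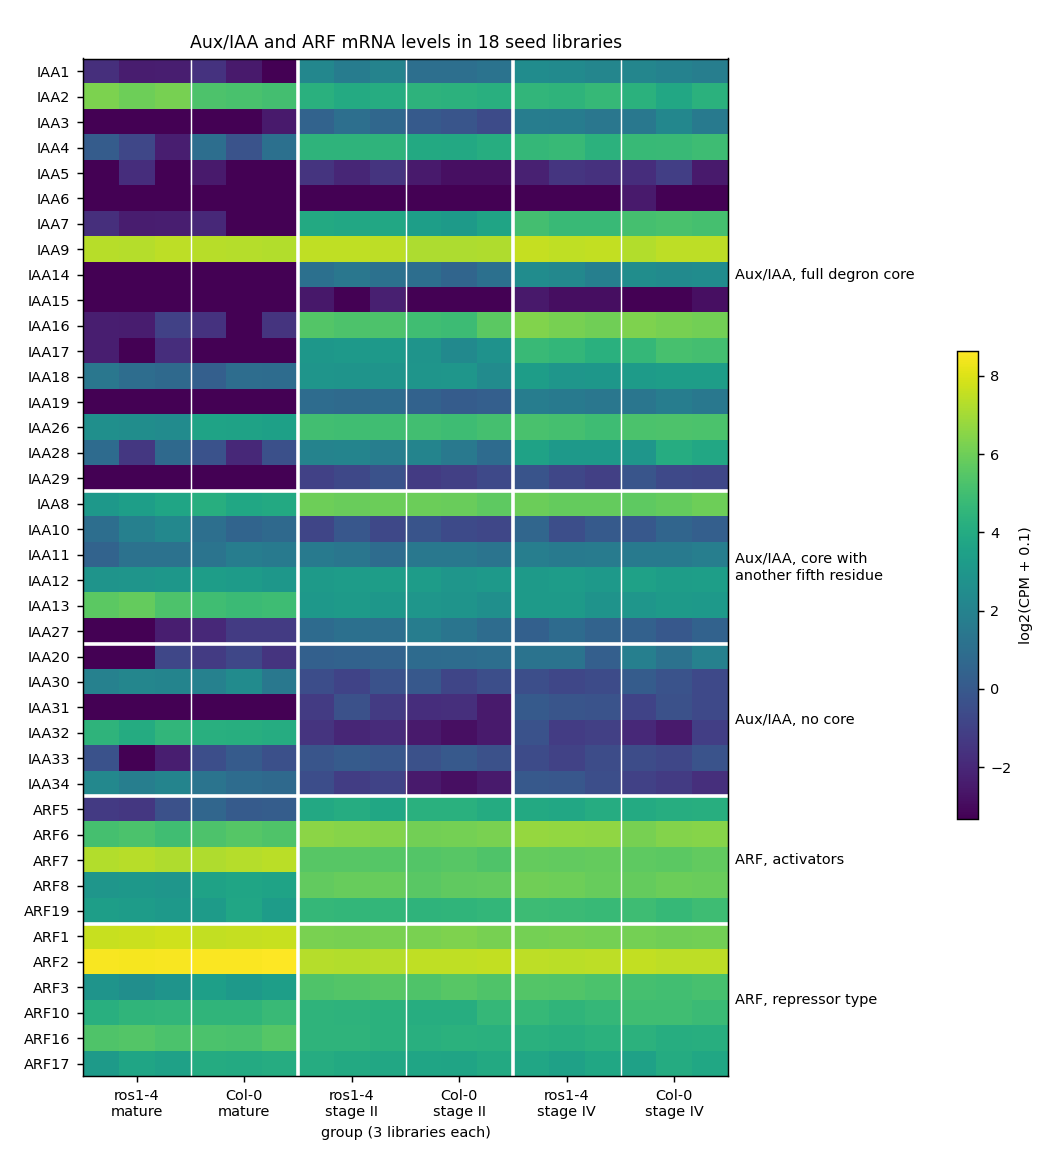
Heat map of the 40 members (rows) in each of the 18 libraries (columns, 3 per group), as log2(CPM + 0.1). IAA9, ARF1, ARF2 and ARF7 are high in mature libraries on this scale, and 12 Aux/IAA genes are at no more than 3 counts in each Col-0 mature library.

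Most members changed by stage II. In seeds labelled ros1-4, 33 of 36 members tested were called (edgeR quasi-likelihood test, Benjamini-Hochberg adjusted p under 0.05 over all genes), against 89.7% of all genes, with 23 higher and 10 lower at stage II, against 50.3% and 39.3% of all genes. In Col-0, 30 of 35 were called, against 88.3%, with 19 higher and 11 lower, against 47.3% and 41.0%. Change was about as common among all genes, so these counts show nothing particular to the members. In 8 members with the ros1-4 label and 9 in Col-0, 1 of the groups compared was at the floor, with at most 3 counts in every library, and these members passed the filter on low counts only through the other group. IAA5, IAA6 and IAA15, with 9 counts or fewer in each of the 18 libraries, were tested in no comparison.

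Many Aux/IAA genes with the full core were at the floor in mature seeds, and most of these were above it at stage II. IAA6 and IAA15 stayed at the floor in every group, and IAA5 was still at the floor at stage II in Col-0. IAA17 (AT1G04250), known as AXR3, had 8.03, 8.4 and 8.8 CPM at stage II with the ros1-4 label, against 0.102, 0 and 0.197 CPM in mature seeds. Col-0 seeds had 7.12, 5.08 and 6.66 CPM at stage II, against 0 counts in the 3 mature libraries. With the mature group set at 3 counts per library, the rise was at least 28.4-fold in seeds labelled ros1-4 and at least 26.1-fold in Col-0. Every stage II library lay above every mature library.

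IAA16 (AT3G04730) reached higher levels. It had 42.8, 39.6 and 38.8 CPM at stage II with the ros1-4 label, against 0.102, 0.096 and 0.395 CPM in mature seeds, from 1, 1 and 4 counts. The log2 fold change of 7.62 ± 0.21 (SE, edgeR adjusted p = 1.47e-13) rested on these few counts and was 8.58 without mature replicate 3, where the remaining mature libraries were at the floor. In Col-0 it had 31.5, 29.1 and 48.5 CPM at stage II, against 0.238, 0 and 0.242 CPM in mature seeds, at least 151-fold higher. Stages did not overlap in either genotype.

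IAA14 (AT4G14550), known as SOLITARY-ROOT for its part in lateral root formation, had 0 counts in all 6 mature libraries. At stage II it had 2.04, 2.61 and 2.08 CPM in seeds labelled ros1-4 and 1.91, 1.42 and 2 CPM in Col-0, at least 7.57-fold and 7.38-fold above the floor of the same genotype's mature group. IAA7, which acts in root gravitropism, rose at least 49.4-fold in seeds labelled ros1-4 and at least 44.4-fold in Col-0. For IAA1, IAA3 and IAA19 the rises were at least 13.1-fold, 5.36-fold and 5.76-fold with the ros1-4 label and at least 8.57-fold, 3.19-fold and 4.7-fold in Col-0. Of the full-core genes above the floor in mature seeds, IAA4, IAA18, IAA26 and IAA28 rose in both genotypes and IAA9 was not called in either. The lack of a call for IAA9 holds for TMM scaling. Before scaling, IAA9 had 4918 to 5038 counts at stage II with the ros1-4 label, against 1580 to 1771 in mature seeds. In Col-0 it had 3399 to 3651 counts, against 1883 to 2018. IAA2 fell by 2.05 ± 0.10 on the log2 scale in seeds labelled ros1-4 and by 0.88 ± 0.09 in Col-0, where scaling by total counts alone turned the change to 0.09.

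Genes without the core included the 3 largest falls called in Col-0. IAA32 had 0.251, 0.143 and 0.179 CPM at stage II with the ros1-4 label, against 21.6, 16.5 and 23 CPM in mature seeds, and fell by 6.70 ± 0.23 on the log2 scale. Col-0 seeds had 0.0796, 0.0416 and 0.0802 CPM at stage II, from 2 counts or fewer, against 18.8, 17.8 and 16.7 CPM in mature seeds, at least 146-fold lower. IAA34 had 0.609, 0.357 and 0.429 CPM at stage II with the ros1-4 label, against 4.67, 3.36 and 4.14 CPM in mature seeds. Its Col-0 values were 0.0796, 0.0416 and 0.0802 CPM at stage II, again from 2 counts or fewer, against 2.31, 1.77 and 1.62 CPM in mature seeds, at least 15.6-fold lower. IAA32 overlaps a neighbouring gene on the opposite strand and IAA34 one on the same strand, which leaves their counts uncertain.

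IAA30 had 0.609, 0.429 and 0.716 CPM at stage II with the ros1-4 label, against 3.65, 4.32 and 4.14 CPM in mature seeds, and 0.875, 0.458 and 0.641 CPM at stage II in Col-0, against 3.66, 5.31 and 2.67 CPM in mature seeds. It fell by 2.79 ± 0.27 on the log2 scale with the ros1-4 label and by 2.55 ± 0.35 in Col-0, with no overlap between stages. IAA20, also without the core, rose in both genotypes. It had 33, 35 and 36 counts at stage II with the ros1-4 label, against 0, 0 and 5 in mature seeds, and 43, 43 and 48 at stage II in Col-0, against 4, 6 and 3 in mature seeds. Among genes whose core ends in another residue, IAA8 and IAA27 rose and IAA10 and IAA13 fell in both genotypes. With the ros1-4 label IAA12, IAA29 and IAA33 were also called higher. The call of IAA12 was lost in 5 of 6 fits that left out 1 library (edgeR adjusted p = 0.0536 to 0.138), by the DESeq2 Wald test (adjusted p = 0.0641) and with the replicate block (0.0546). The call of IAA33 was lost in 4 of 6 such fits (edgeR adjusted p = 0.0514 to 0.0948) and by the DESeq2 Wald test (adjusted p = 0.0641). In Col-0 IAA12 and IAA33 were not called and IAA29 was not tested, and no interaction was called for these genes.

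Of the 5 activator ARF genes 4 rose in each genotype, against 50.3% of all genes higher with the ros1-4 label and 47.3% in Col-0. Of 6 repressor-type genes 3 fell in both genotypes, against 39.3% and 41.0% of all genes lower. With so few genes nothing is read from these counts. The median log2 fold change of the 11 at stage II was 0.47 in seeds labelled ros1-4, beside 0.33 over all genes. In Col-0 it was -0.26, beside 0.17. Both medians match the values of ARF17 given below, whose call in Col-0 most alternatives ended. The other ARF genes called moved the same way in both genotypes. Of the 5 activators, ARF5, ARF6, ARF8 and ARF19 rose and ARF7 fell in both genotypes. ARF5 (MONOPTEROS), which is needed to form the embryonic root, had 14.7, 16.7 and 13.8 CPM at stage II with the ros1-4 label, against 0.305, 0.288 and 0.69 CPM in mature seeds. In Col-0 it had 19.4, 19.4 and 16.3 CPM, against 1.43, 0.966 and 1.05 CPM. The log2 fold change was 5.11 ± 0.24 with the ros1-4 label and 3.99 ± 0.17 in Col-0, from mature counts of 18 or fewer per library.

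Of the repressor-type genes ARF1, ARF2 and ARF16 fell and ARF3 rose in both genotypes, while ARF10 was not called in either. ARF2 (AT5G62000) had 156, 155 and 156 CPM at stage II in seeds labelled ros1-4, against 372, 358 and 364 CPM in mature seeds. Col-0 values were 181, 178 and 186 CPM at stage II, against 381, 382 and 397 CPM in mature seeds. ARF1 had 74.1, 73.2 and 74.9 CPM at stage II with the ros1-4 label, against 197, 202 and 220 CPM in mature seeds. The Col-0 values of ARF1 were 73.7, 79 and 72.7 CPM at stage II, against 188, 190 and 197 CPM in mature seeds. Stages did not overlap for either gene. ARF17 rose with the ros1-4 label, with a log2 fold change of 0.47 ± 0.12. In Col-0 its log2 fold change was -0.26 ± 0.11, a call that most alternatives ended. It was lost in 5 of 6 fits that left out 1 library (edgeR adjusted p = 0.0719 to 0.162), with DESeq2 size factors (0.0517), by the DESeq2 Wald test (0.135), with no filter on low counts (0.0811) and with all 18 libraries in one fit (0.0836).

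The direction of moderately changed genes depended on scaling. Scaling by total counts alone put the median log2 change of all genes at 1.68 in seeds labelled ros1-4, against 0.33 with TMM, and at 1.14 in Col-0, against 0.17. Members called were then 27 higher and 7 lower with the ros1-4 label, against 73.8% and 18.7% of all genes, and 25 higher and 6 lower in Col-0, against 66.1% and 23.5%. ARF2 and ARF16 turned to 0.12 and 0.40 in seeds labelled ros1-4, and ARF17 to 0.71 in Col-0. The fall of ARF1 with the ros1-4 label shrank to -0.13 and was not called (edgeR adjusted p = 0.0886). Of all genes called in Col-0, 8693 of 16228 were higher with TMM and 12157 of 16473 with total counts. TPM carry no TMM scaling and can move otherwise than CPM between stages. With the ros1-4 label ARF2 had 89.2 TPM at stage II, against 69.7 TPM in mature seeds, while its CPM fell.

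**Figure D2:**
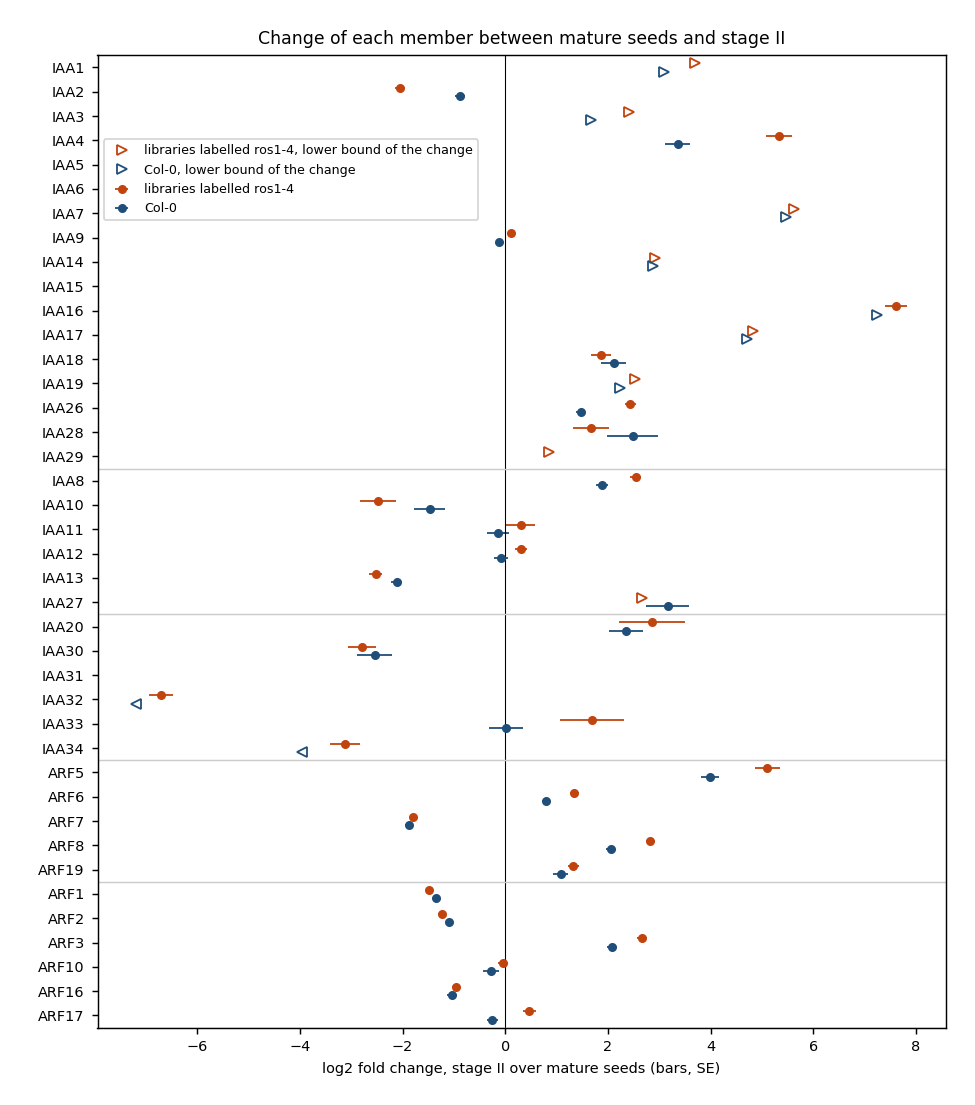
Log2 fold change of the members (rows) at stage II over mature seeds, in seeds labelled ros1-4 and in Col-0, with SE bars; open triangles are lower bounds where a group had at most 3 counts in every library. With the ros1-4 label ARF8 lies at 2.83 and IAA32 at -6.70.

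Between stages II and IV 7 of the 17 Aux/IAA genes with the full core, which had risen by stage II in both genotypes, rose further in both. The share of all genes that rose in this way was not counted, so nothing particular to the members is read from it. In seeds labelled ros1-4, 12 of 36 members were called, against 39.9% of all genes, with 10 higher and 2 lower at stage IV, against 20.7% and 19.2%. In Col-0, 20 of 35 were called, against 38.7%, with 18 higher and 2 lower, against 21.8% and 16.8%. IAA17 had 27.1, 23.7 and 19.3 CPM at stage IV with the ros1-4 label, against 8.03, 8.4 and 8.8 CPM at stage II, a log2 fold change of 1.43 ± 0.12. Col-0 seeds had 24.9, 35.9 and 32.8 CPM at stage IV, against 7.12, 5.08 and 6.66 CPM at stage II, a change of 2.30 ± 0.18. The other 6 were IAA3, IAA7, IAA14, IAA16, IAA19 and IAA28. The Col-0 count rested on single libraries: it was 12 and 11 without replicate 1 or 2 of stage II, against 26.8% and 23.4% of all genes, and 11 and 13 without replicate 2 or 3 of stage IV, against 24.0% and 28.0%.

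Most members also differed between stage IV and mature seeds. In seeds labelled ros1-4, 32 of 36 members were called, against 88.9% of all genes, 22 higher and 10 lower, against 50.6% and 38.3%. In Col-0, 31 of 37 were called, against 89.7%, 22 higher and 9 lower, against 49.4% and 40.3%. The mature libraries are shared between these comparisons and those at stage II. IAA16 had 82.7, 72.6 and 65.2 CPM at stage IV with the ros1-4 label and 80.3, 73.3 and 69 CPM in Col-0. IAA32 stayed low, with 0.717, 0.332 and 0.373 CPM with the ros1-4 label and 0.158, 0.0807 and 0.368 CPM in Col-0. Total counts alone gave 27 higher and 7 lower with the ros1-4 label, against 72.2% and 18.6% of all genes, and 26 higher and 7 lower in Col-0, against 66.1% and 24.3%.

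Mature seeds differed between the genotypes in 9 of 23 members tested, 39.1%, against 26.8% of all genes. In seeds labelled ros1-4, 4 were higher (IAA2, IAA10, IAA13 and IAA34), against 13.8% of all genes, and 5 were lower (IAA8, IAA26, ARF3, ARF8 and ARF17), against 13.0%. Over the 23 the median log2 difference was -0.06, beside -0.01 over all genes. The ranges of the genotypes did not overlap in 14 of the 23, against 40.7% of all genes tested.

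IAA2 (AT3G23030) had 78.2, 62.7 and 72.8 CPM in mature seeds labelled ros1-4, against 39.7, 36.9 and 33.5 CPM in Col-0. Every library of the ros1-4 label lay above every Col-0 library, with a log2 fold change of 0.98 ± 0.10 (edgeR adjusted p = 3.28e-06). IAA13, close in sequence to BODENLOS (IAA12), had 48.3, 55.7 and 39.7 CPM in seeds labelled ros1-4, against 31.4, 28.3 and 29.7 CPM in Col-0, again without overlap, with a log2 fold change of 0.71 ± 0.11.

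IAA34 had 4.67, 3.36 and 4.14 CPM in mature seeds labelled ros1-4, against 2.31, 1.77 and 1.62 CPM in Col-0, from 46 counts or fewer per library. The groups did not overlap, and the log2 fold change was 1.11 ± 0.27 (edgeR adjusted p = 0.00628). IAA10 had 1.93, 3.55 and 4.73 CPM in seeds labelled ros1-4, against 1.99, 1.37 and 1.62 CPM in Col-0. Here 1 library of the ros1-4 label lay within the Col-0 range, and the log2 fold change of 1.05 ± 0.33 had an edgeR adjusted p of 0.0279. That call was lost without Col-0 replicate 1, 2 or 3 (edgeR adjusted p = 0.0501, 0.1 and 0.0864) and without replicate 2 or 3 of the ros1-4 label (0.0527 and 0.13). IAA10 and IAA13 overlap genes on the opposite strand, and the strand setting of the counting is not given in the sources used here.

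Among the lower genes, IAA26 had 6.09, 5.76 and 5.42 CPM in mature seeds labelled ros1-4, against 12, 11.7 and 11.2 CPM in Col-0, a fall of 0.99 ± 0.15 on the log2 scale. ARF8, the activator with the MIR167a site printed above, had 7.72, 8.06 and 7.79 CPM in seeds labelled ros1-4, against 11.8, 12.8 and 12.3 CPM in Col-0, a fall of 0.63 ± 0.14. ARF17, with the MIR160a site, had 9.04, 12.9 and 11.3 CPM in seeds labelled ros1-4, against 16.1, 15.9 and 16.7 CPM in Col-0, a fall of 0.53 ± 0.13. None of these 3 genes overlapped between genotypes.

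IAA8 had 8.22, 10.5 and 13.1 CPM in mature seeds labelled ros1-4, against 17.8, 13.8 and 15 CPM in Col-0, a fall of 0.53 ± 0.15. ARF3 (ETTIN), which patterns the gynoecium, had 7.11, 5.95 and 7.3 CPM in seeds labelled ros1-4, against 10.7, 8.77 and 10.3 CPM in Col-0, a fall of 0.53 ± 0.16. The call of IAA8 was lost without replicate 1 of ros1-4 or of Col-0 (edgeR adjusted p = 0.0902 and 0.101). The call of ARF3 was lost without ros1-4 replicate 2 (0.0715) and without Col-0 replicate 1 or 3 (edgeR adjusted p = 0.0907 and 0.0763).

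The composition of mature seeds moved with this comparison. The summed level of the 10 storage and late maturation genes was 330745 to 391244 CPM in seeds labelled ros1-4, against 252141 to 266061 CPM in Col-0, and 9 of the 10 were called higher. Of 6 germination genes 5 were lower, among them the expansins EXPA1 and EXPA2, which fell by 2.04 ± 0.32 and 1.92 ± 0.33 on the log2 scale, and the mannanase MAN7, which fell by 1.31 ± 0.10. EPR1, an extensin-like gene of the endosperm, was higher by 1.14 ± 0.13. Their part in the values of the members was not tested. With total counts alone as the scale the median of all genes moved to -0.34, and 3 members were called higher and 16 lower, against 3.02% and 48.8% of all genes.

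**Figure D3:**
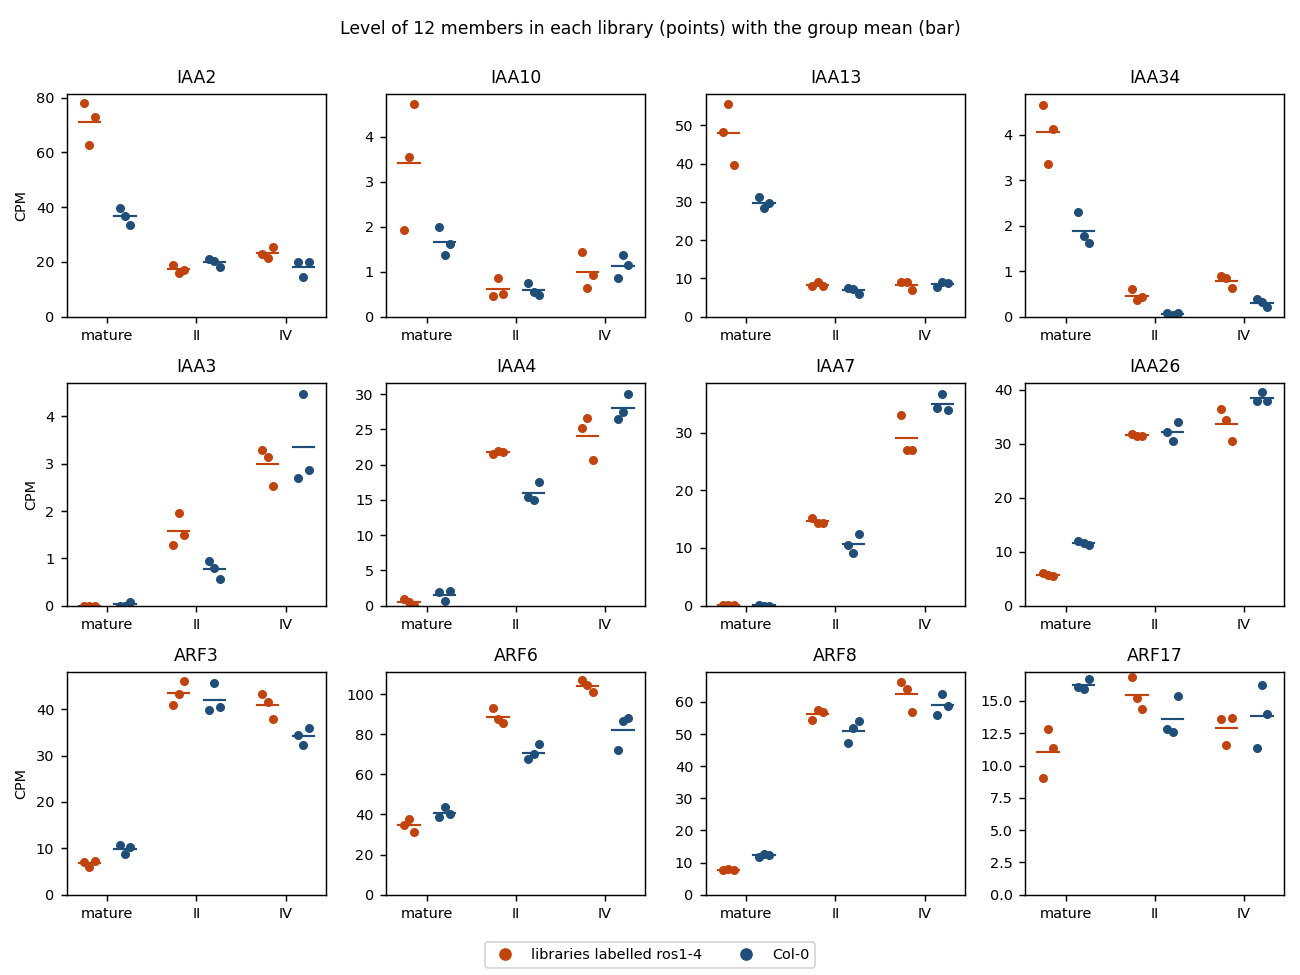
CPM of 12 members in each library (points) with the group mean, in mature seeds and at stages II and IV, for seeds labelled ros1-4 and Col-0. The mature libraries of IAA2 lie at 62.7 CPM or more with the ros1-4 label and at 39.7 CPM or less in Col-0.

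At stage II, 7 of 34 members differed between the genotypes, 20.6%, against 22.6% of all genes, a share near the background. In seeds labelled ros1-4, 6 were higher (IAA1, IAA3, IAA4, IAA7, IAA9 and ARF6), against 11.4% of all genes, and 1, ARF2, was lower, against 11.1%. The 5 Aux/IAA genes all have the full core, as do 17 of the 29 in the family, and nothing is read from this. IAA3 (SHORT HYPOCOTYL 2) had 1.29, 1.97 and 1.5 CPM in seeds labelled ros1-4, against 0.955, 0.791 and 0.561 CPM in Col-0, a log2 fold change of 1.04 ± 0.27 (edgeR adjusted p = 0.0294). The groups did not overlap, but the counts were 14 to 55 per library. The call was lost without replicate 1, 2 or 3 of the ros1-4 label (edgeR adjusted p = 0.0518, 0.113 and 0.0824) or without Col-0 replicate 2 (0.0716).

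IAA4 had 21.5, 22 and 21.7 CPM at stage II in seeds labelled ros1-4, against 15.4, 15 and 17.5 CPM in Col-0, a log2 fold change of 0.44 ± 0.07. IAA7 had 15.2, 14.3 and 14.3 CPM in seeds labelled ros1-4, against 10.5, 9.16 and 12.5 CPM in Col-0, a change of 0.45 ± 0.11. IAA9 had 181, 178 and 176 CPM in seeds labelled ros1-4, against 142, 141 and 146 CPM in Col-0, a change of 0.31 ± 0.04. Ranges did not overlap in these 3 genes. The call of IAA7 was lost without ros1-4 replicate 1, 2 or 3 (edgeR adjusted p = 0.0978, 0.079 and 0.0804) and without Col-0 replicate 1 or 2 (0.0673 and 0.0569).

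ARF6, an activator of hypocotyl and flower growth, had 93.2, 87.3 and 85.6 CPM at stage II in seeds labelled ros1-4, against 67.5, 70.1 and 74.9 CPM in Col-0, a log2 fold change of 0.32 ± 0.06. ARF2, whose stage II values are given above, fell by 0.22 ± 0.04 and was not called without ros1-4 replicate 2 or 3 (edgeR adjusted p = 0.0505 and 0.0535). IAA1 was higher by 0.90 ± 0.18. The number of calls depended on single libraries: it was 4, all higher, without replicate 3 of the ros1-4 label, against 11.5% of all genes, and 16, of them 12 higher, without Col-0 replicate 3, against 37.0%. That Col-0 library stood apart over all genes. The mean squared difference per gene, relative to that of counting error, was 19.2 and 19.1 between it and Col-0 replicates 1 and 2, and 5.97 between those replicates. Among the members IAA16 was high in it, as the last of the 3 Col-0 values at stage II given above shows.

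Genes of root hairs, storage, germination and endosperm moved with the stage II comparison. The summed level of 5 root hair markers was 48.5 to 57.9 CPM in seeds labelled ros1-4, against 13.5 to 17.5 CPM in Col-0, and 4 of 5 were called higher. EXPA18 had 206, 261 and 177 counts in seeds labelled ros1-4, against 0, 0 and 8 counts in Col-0, and EXPA7 had 308, 398 and 238 counts with the ros1-4 label, against 1, 1 and 10 counts in Col-0. In Col-0 most of these counts came from replicate 3, the library that stood apart. SHV2 was higher by 2.92 ± 0.24 on the log2 scale. Of the 10 storage and late maturation genes 6 were higher and 1 lower, with changes of 3.81 ± 0.20 for CRA1, 2.95 ± 0.21 for CRU3 and 2.56 ± 0.25 for OLEO1. Their summed level was 1331 to 1919 CPM in seeds labelled ros1-4, against 341 to 543 CPM in Col-0. Of 6 germination genes 4 were lower (ICL, MLS, PCK1 and MAN7) and 1, EXPA1, was higher, by 0.49 ± 0.12 on the log2 scale, with MAN7 falling by 0.51 ± 0.14. EPR1 of the endosperm was higher by 0.77 ± 0.18. The part of these genes in the values of the members was not tested.

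At stage IV 1 of 36 members differed by this test, 2.78%, against 8.22% of all genes. It was ARF6, higher with the ros1-4 label, where 3.72% of all genes were higher and 4.5% lower. ARF6 had 107, 104 and 101 CPM in seeds labelled ros1-4, against 72.2, 86.5 and 88.1 CPM in Col-0, a log2 fold change of 0.35 ± 0.09 (edgeR adjusted p = 0.0466) with no overlap. The call was lost without ros1-4 replicate 1, 2 or 3 (edgeR adjusted p = 0.106, 0.145 and 0.105) and without Col-0 replicate 1 or 2 (0.0581 and 0.0944). IAA34 had 0.905, 0.849 and 0.634 CPM in seeds labelled ros1-4, against 0.396, 0.323 and 0.204 CPM in Col-0, and did not pass (edgeR adjusted p = 0.0504). IAA4 and IAA7, called at stage II, had log2 differences of -0.21 ± 0.11 and -0.26 ± 0.09 at stage IV and were not called.

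**Figure D4:**
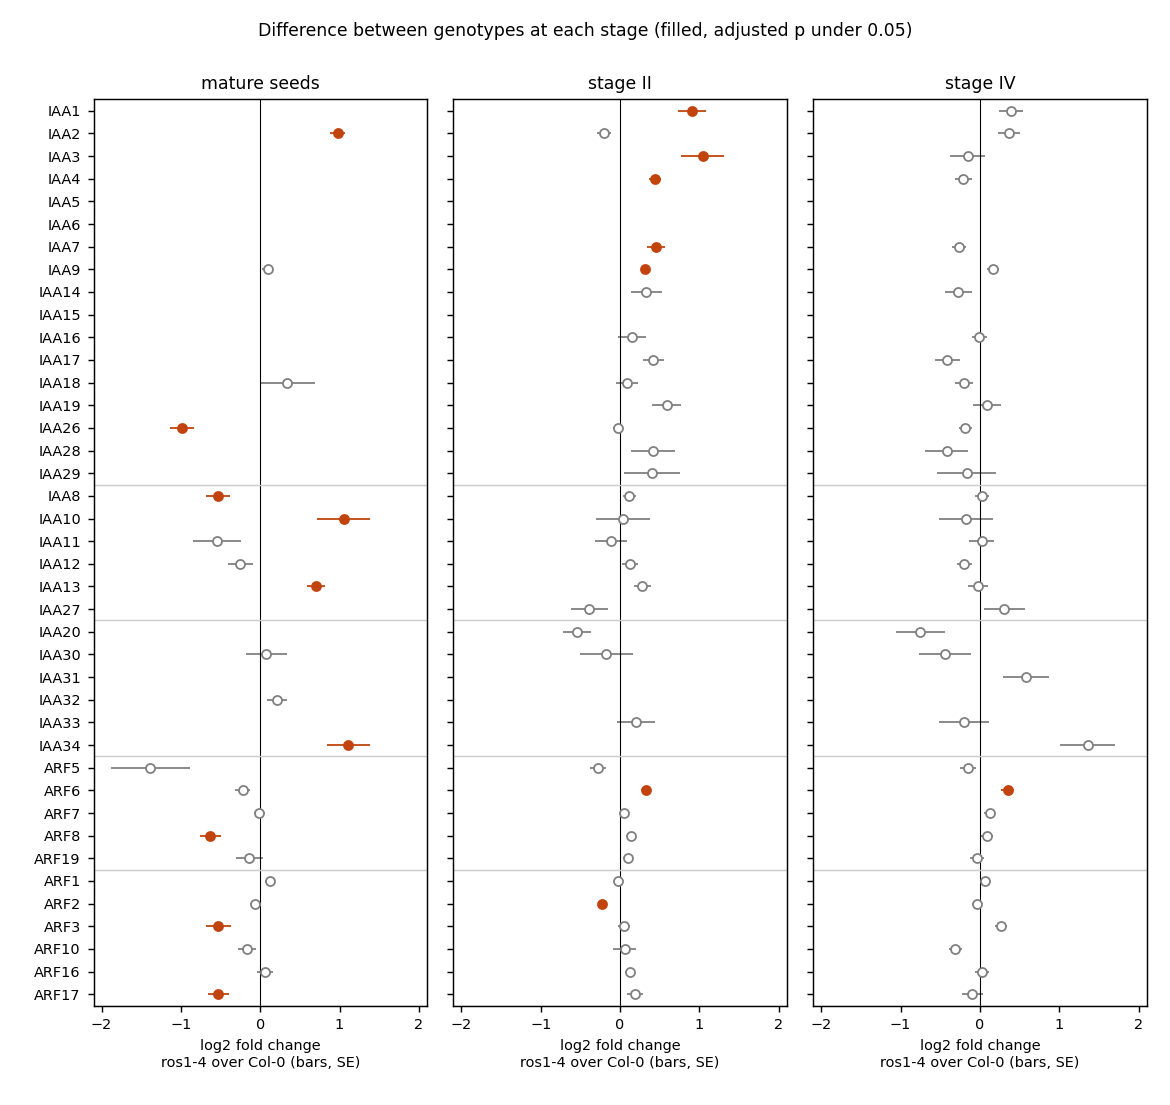
Log2 fold change of each tested member (rows) in seeds labelled ros1-4 over Col-0, in mature seeds and at stages II and IV, with SE bars. Filled points are called: 9 in mature seeds, 7 at stage II and 1, ARF6, at stage IV.

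Whether the change over germination differed between genotypes was tested as an interaction. The interaction is the log2 change with the ros1-4 label minus that in Col-0. From mature seeds to stage II it was called in 8 of 36 members, against 19.7% of all genes. It was positive in 7 and negative in 1, IAA2, which fell further with the ros1-4 label, against 10.4% and 9.24%. From mature seeds to stage IV it was called in 7 of 37, against 14.2%. Of these 5 were positive and 2, IAA2 and IAA13, negative, against 8.7% and 5.52%. From stage II to stage IV it was called in 2 of 36, both negative, against 3.46% of all genes called, 1.06% positive and 2.4% negative. IAA4 (AT5G43700) had 21.5, 22 and 21.7 CPM at stage II with the ros1-4 label, against 1.02, 0.48 and 0.0986 CPM in mature seeds. Its Col-0 values were 15.4, 15 and 17.5 CPM at stage II, against 1.91, 0.724 and 2.02 CPM in mature seeds, and the mature counts were 25 or fewer per library. The mature libraries are those of the genotype comparison above. With total counts alone, 20 members were called from mature seeds to stage II, 19 positive and 1 negative, against 38.7% and 2.41% of all genes. From mature seeds to stage IV 14 were called, all positive, against 31.4% positive and 1.69% negative.

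The share of a gene's counts that Salmon gave to each transcript is a description only, since 50-base reads separate transcripts poorly. Transcript AT1G77850.1 of ARF17 took 90.5% ± 4.81 (SD, n = 3) of the counts at stage II with the ros1-4 label, against 43.3% ± 25.4 in mature seeds. In Col-0 the shares were 85% ± 4.38 at stage II and 66.4% ± 18.7 in mature seeds. Transcript AT5G37020.1 of ARF8 took 82.9% ± 10.3 at stage II with the ros1-4 label, against 46.6% ± 50.3 in mature seeds, where the spread covered the difference. In Col-0 its shares were 73.6% ± 13.7 at stage II and 26.8% ± 11.7 in mature seeds. ARF8 and ARF17 had 76 to 207 counts per mature library. Transcript AT1G15050.2 of IAA34 took 95.5% ± 7.78 at stage II with the ros1-4 label, against 8.51% ± 14.7 in mature seeds, from means of 12.6 and 2.98 counts per library. It took 19.1% ± 19.7 in mature Col-0 seeds, and at stage II IAA34 had too few Col-0 counts for a share.

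Counts for the other genes of the pathway at stage II stand beside 89.7% of all genes called with the ros1-4 label and 88.3% in Col-0. Most of the shares called were near these. Of all genes, 50.3% were higher and 39.3% lower with the ros1-4 label, and 47.3% and 41.0% in Col-0. Directions depend on scaling here as for the members. The TIR1/AFB receptors, which bind auxin, were higher at stage II in 5 of 6 genes and lower in 1 with the ros1-4 label, and higher in 4 of 6 in Col-0. TOPLESS corepressors were lower in 5 of 5 with the ros1-4 label, and lower in 4 and higher in 1 of 5 in Col-0. These falls rest on TMM scaling. With the ros1-4 label TPL had 4665, 4504 and 4518 counts at stage II, against 2046, 2151 and 1845 in mature seeds. Unscaled counts of TPR1, TPR2, TPR3 and WSIP2 rose there too, while in Col-0 those of TPR1 and WSIP2 fell. Genes of the SCF ubiquitin ligase and its RUB cycle were lower in 6 and higher in 1 of 8 in both genotypes. Of 12 further ARF genes 4 were tested, with 1 higher and 1 lower in each genotype. Genes of auxin synthesis and release were higher in 6 and lower in 1, of 8 tested with the ros1-4 label and of 7 tested in Col-0. GH3 genes, whose enzymes conjugate auxin to amino acids, were higher in 4 and lower in 1 of 6 with the ros1-4 label, and higher in 4 and lower in 2 of 6 in Col-0. No SAUR gene of 10 was tested there.

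Between the genotypes, calls in the pathway lists stand beside 26.8% of all genes called in dry seeds, 22.6% called at stage II and 8.22% called at stage IV. With so few genes in each list nothing is read from a count near these shares. At stage II BRU6 (GH3.2) and GH3.3 were higher by 2.46 ± 0.25 and 2.22 ± 0.26 on the log2 scale in seeds labelled ros1-4, and 3 of 6 GH3 genes tested were called, all higher. In mature seeds 3 of 4 GH3 genes were lower and 1, BRU6, was higher. BRU6 had 260, 239 and 288 CPM in mature seeds labelled ros1-4, against 115, 120 and 114 CPM in Col-0. DFL1 (GH3.6) fell by 1.65 ± 0.34 at lower levels, with 1.32, 0.576 and 1.28 CPM under the ros1-4 label, against 3.97, 2.9 and 3.23 CPM. The summed GH3 level in mature seeds was 255 to 308 CPM with the ros1-4 label, against 150 to 158 CPM in Col-0. At stage IV 3 of 6 GH3 genes were higher. Receptors were lower in 3 of 6 in mature seeds and in 2 of 6 at stage II. Corepressors were lower in 2 and higher in 1 of 5 in mature seeds, and SCF genes lower in 1 and higher in 2 of 8. Of 9 genes of auxin synthesis and release tested at stage II, 2 were lower, IAR3 and ILR1, whose enzymes release auxin from its conjugates, by 0.35 ± 0.07 and 0.60 ± 0.17 on the log2 scale. None of the synthesis genes TAA1, TAR2, YUC4, YUC6, YUC8 and YUC9 was called.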

How the data were processed

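The authors ran Salmon on single-end reads of 50 bases against Araport11 transcripts and deposited its estimated counts (expected counts) per transcript, with no scaling for depth or length. The strand setting is not given in the sources used here. Transcripts were added up per gene and the sums rounded. Totals were 18737837 to 20787603 per library. Differences were tested with edgeR 4.0.16 in R 4.3.3 (quasi-likelihood, TMM, filterByExpr, two-sided, Benjamini-Hochberg over all genes tested, called at an adjusted p under 0.05), each comparison on its own 6 libraries and each interaction on 12. The test was checked on simulated counts. A group with at most 3 counts of a gene in every library was at the floor, and folds against it are lower bounds. TPM were computed here from the deposited counts and annotated transcript lengths, and with deposited effective lengths as an alternative chosen after the data were seen. Sequences came from RefSeq (TAIR10.1), where 81 of 81 member transcripts had the same length. A total of 13 members overlap another gene (IAA3, IAA5, IAA9, IAA10, IAA11, IAA13, IAA27, IAA32, IAA34, ARF1, ARF5, ARF7 and ARF19) and are uncertain for that reason.

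The members and lists were chosen with earlier results of these data known. Values in every library were given by rule for ROS1, for members called between genotypes with a log2 change of 1 or more in either direction or called in an interaction, for the 3 largest rises and 3 largest falls called at stage II in Col-0, and for the 3 most abundant genes of each family. Up to 3 genes of a pathway or marker list were named where such a difference between genotypes was called. Other members given with values were chosen after their values were seen. Alternatives were DESeq2 size factors, total counts alone, the DESeq2 1.42.0 Wald test, no filter, all 18 libraries in one fit, a replicate block, an adjusted p under 0.01 and leaving out each library. The methods call the replicates biological without saying whether they came from separate plants, so p-values measure the spread between these samples.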

Additional observations from a re-analysis of the deposited data

Results flagged for a closer look

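In these members the change over germination differed between seeds labelled ros1-4 and Col-0 seeds by the interaction test of edgeR (adjusted p under 0.05). Each value is the log2 change with the ros1-4 label minus that in Col-0. At germination ROS1 mRNA was higher with the ros1-4 label than in Col-0.

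From mature seeds to stage II the difference was -1.19 ± 0.14 (SE) for IAA2, 1.96 ± 0.51 for IAA4, 0.63 ± 0.18 for IAA8, 0.95 ± 0.13 for IAA26, 0.56 ± 0.15 for ARF3, 0.53 ± 0.12 for ARF6, 0.75 ± 0.12 for ARF8 and 0.70 ± 0.17 for ARF17. The call of IAA4 was lost without Col-0 mature replicate 3 (edgeR adjusted p = 0.0557), and its value was 2.83 without ros1-4 mature replicate 1. The call of IAA8 was lost without mature replicate 1 of ros1-4 or of Col-0 (edgeR adjusted p = 0.0597 and 0.0659).

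From mature seeds to stage IV it was -0.62 ± 0.18 for IAA2, -0.75 ± 0.19 for IAA13, 0.79 ± 0.14 for IAA26, 0.78 ± 0.15 for ARF3, 1.23 ± 0.38 for ARF5, 0.56 ± 0.14 for ARF6 and 0.70 ± 0.13 for ARF8. Leaving out 1 library of 12 lost the call of IAA2 in 8 fits and that of ARF5 in 11. The mature counts of ARF5 were 3 to 7 in libraries labelled ros1-4 and 12 to 18 in Col-0 libraries.

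From stage II to stage IV it was -0.68 ± 0.14 for IAA4 and -0.74 ± 0.15 for IAA7. Leaving out 1 library of 12 lost the call of IAA4 in 6 fits and that of IAA7 in 8.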

How the results depend on the processing

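Over 192 member changes called, 1097 of 1152 refits under settings other than leaving out a library kept the call, 49 lost it and 6 reversed, all 6 with total counts alone. These were IAA2 (0.0878) and ARF17 (0.71) at stage II against mature seeds in Col-0, and with the ros1-4 label ARF2 (0.12) and ARF16 (0.40) at stage II and ARF2 (0.20) and ARF16 (0.20) at stage IV against mature seeds. Total counts alone also gave 19 calls between genotypes in mature seeds against 9, and interactions in 20 members to stage II against 8 and in 14 to stage IV against 7. At an adjusted p under 0.01, 9 calls were left in Col-0 between stages II and IV, 5 interactions to stage II, 3 to stage IV, 0 between stages II and IV, and 0 between genotypes at stage IV. The last comparison had 2 calls by the DESeq2 Wald test, 4 with all 18 libraries in one fit and 0 with the replicate block, and the interaction between stages II and IV had 1 with the replicate block. The cause was not tested. No comparison had every same-number correlation between replicates above 0.1, but with 3 libraries per group this does not show that the samples were unpaired. Between stages II and IV with the ros1-4 label each library matched its own number best, with correlations of 0.162, 0.024 and 0.224. The replicate block lost 14 of the calls.

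Leaving out 1 library gave 6 to 10 calls between genotypes in dry seeds, 4 to 16 at stage II, and 0 to 2 later on at stage IV. Stage II against mature seeds had 31 to 33 calls with the ros1-4 label and 29 to 31 in Col-0, stage IV against mature seeds 30 to 33 and 31 to 32, and stage IV against stage II 10 to 17 and 11 to 18. Interactions gave 7 to 12 to stage II, 5 to 8 to stage IV, and 0 to 5 between these stages. Of 1254 such refits, 135 lost the call and 0 reversed.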
